A study of Mus musculus with 6 samples.

Results

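Transcripts of 10 genes of cytotoxic effector function were followed in whole spleens of NOD.B10 and BL/10 mice. They were chosen by name and are Gzma, Gzmb, Gzmk and Gzmm (granzymes), Prf1 (perforin), Nkg7 (a cytotoxic granule membrane protein), Eomes and Tbx21 (T-box transcription factors), Fasl (a death ligand) and Ifng (interferon gamma). All 10 are among the 47729 genes of the count table, and all 10 passed the filter on low counts that left 15330 genes for testing. RNA-seq was performed on spleens of 3 NOD.B10 females, a strain that develops spontaneous disease resembling primary Sjögren's syndrome, and 3 BL/10 (C57BL/10SnJ) females, the healthy control strain. The labels name no treatment for either strain. NOD.B10 carries the major histocompatibility haplotype of the B10 strain on a NOD background and develops the disease without autoimmune diabetes. Whole spleens were used, so no cell type was isolated.

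The labels conflict on the strain of each library. In all 6, the strain given by title and strain field is the opposite of that in the description and in the column of the table. The description and column were followed here, and every direction given would reverse under the titles. Ifi202b, an interferon-inducible gene known to be expressed in NOD mice and nearly silent in C57BL/6 mice, had 838, 624 and 485 reads in the libraries described as NOD.B10, and 2, 0 and 0 in those described as BL/10. The labels give an age of 26 weeks for the 3 NOD.B10 libraries and BL/10 replicate 1, and 36 weeks for BL/10 replicates 2 and 3, although the methods describe the strains as age-matched. The titles of the 36-week libraries name NOD.B10. Ages come from the same records as the titles not followed here, so their match to these libraries is uncertain. Every comparison of 26-week libraries given here rests on that match. If it holds, strain and age can be separated by BL/10 replicate 1 alone.

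Total counts ranged from 15662712 to 18298451, and 3 counts, the detection floor set here, corresponded to 0.163 to 0.201 CPM (counts scaled to library size), a limit that covers counting error only. The 10 genes together held between 1651 and 2473 counts per library. Markers of splenic B cells and red pulp macrophages (Ms4a1, Cd79a, Cd79b, Spic, Vcam1 and Hmox1) were at 146 CPM or more in every library. Pancreas acinar genes held 1.29% of all counts in BL/10 replicate 1 and 0.186% in BL/10 replicate 2, against at most 0.0107% in the other libraries. Without these libraries, Gzmk and Gzmm kept their direction, with log2 fold changes of 3.22 and -1.06. That comparison rests on BL/10 replicate 3 alone, the library with the lowest Gzmk value. It is labeled 36 weeks, so strain and age cannot be told apart there. BL/10 replicate 1 is the only control labeled 26 weeks, so strain and pancreas content cannot be told apart in the 26-week comparison.

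Cytotoxic T lymphocytes and natural killer (NK) cells kill target cells by releasing granules at the contact site. Perforin forms pores in the target membrane, and granzymes, a family of serine proteases, enter through them and cleave proteins of the target. A separate route runs through Fas ligand on the killer cell, and interferon gamma is the cytokine that the same cells secrete to activate macrophages and antigen presentation. Transcription of many of these genes is driven by the T-box factors T-bet (Tbx21) and Eomesodermin (Eomes) together with Runx3. In the spleen these transcripts come mostly from NK cells and from effector and memory T cells.

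Promoter windows of Gzmk, Gzmm and Nkg7 are printed because Gzmk and Gzmm are the granzymes that differed between strains and because all 3 genes have a window with the half-site of T-box factors, the family to which Eomes and Tbx21 belong. The sequences are from RefSeq (GRCm38.p6) and run 5′ to 3′ on the strand of the gene, from 250 bases before to 50 bases after an annotated start. Capitals mark GGTGTGA or its reverse complement TCACACC.
Gzmk promoter, chr13:113180916-113181215, minus strand: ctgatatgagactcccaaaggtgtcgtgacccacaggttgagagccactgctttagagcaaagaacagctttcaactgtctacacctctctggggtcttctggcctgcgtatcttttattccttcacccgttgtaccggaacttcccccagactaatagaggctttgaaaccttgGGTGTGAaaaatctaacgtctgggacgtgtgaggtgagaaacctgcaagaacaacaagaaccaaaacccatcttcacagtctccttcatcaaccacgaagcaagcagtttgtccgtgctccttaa
Gzmm promoter, upstream start, chr10:79688770-79689069, plus strand: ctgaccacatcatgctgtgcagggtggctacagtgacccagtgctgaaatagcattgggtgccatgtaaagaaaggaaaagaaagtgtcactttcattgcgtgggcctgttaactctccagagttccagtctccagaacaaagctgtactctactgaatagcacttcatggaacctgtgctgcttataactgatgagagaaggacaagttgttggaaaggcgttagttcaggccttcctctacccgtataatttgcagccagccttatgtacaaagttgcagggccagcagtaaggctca
Gzmm promoter, downstream start, chr10:79693576-79693875, plus strand: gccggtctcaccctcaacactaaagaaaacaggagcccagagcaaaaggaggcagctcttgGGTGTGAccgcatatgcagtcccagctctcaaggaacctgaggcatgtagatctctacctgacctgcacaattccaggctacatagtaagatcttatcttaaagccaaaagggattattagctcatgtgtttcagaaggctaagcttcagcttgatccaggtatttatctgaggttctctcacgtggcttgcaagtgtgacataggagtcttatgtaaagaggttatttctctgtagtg
Nkg7 promoter, chr7:43436888-43437187, plus strand: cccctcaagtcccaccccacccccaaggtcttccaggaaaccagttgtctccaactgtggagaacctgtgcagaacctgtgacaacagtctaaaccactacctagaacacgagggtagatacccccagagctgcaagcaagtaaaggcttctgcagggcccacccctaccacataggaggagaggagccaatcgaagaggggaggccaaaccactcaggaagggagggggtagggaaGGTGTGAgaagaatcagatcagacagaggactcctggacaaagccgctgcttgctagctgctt

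The half-site, searched on both strands, began 75 bases before the start in Gzmk, 189 bases before the downstream start of Gzmm and 13 bases before the start of Nkg7. In all, 3 of 11 windows of the 10 genes held it (Gzmm has a window for each of its starts), against 1307 of 32851 windows of all genes (3.98%). The Runx motif TGTGGT, or its reverse ACCACA, was found in 5 of the 11 windows, those of Gzma, Gzmb, Prf1, Nkg7 and the upstream start of Gzmm, against 16.8% of all windows. No match of the Runx motif overlapped one of the T-box half-site in these windows. Matches describe letters and not binding. Gzmk had the half-site in its only window, and Gzmm in that of its downstream start alone. The part of the half-site in the strain differences of these genes was not tested. The gene model of Gzmk used for counting extends upstream of its RefSeq start.

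Of the 10 genes, Gzmk rose and Gzmm fell in NOD.B10 spleens, and the adjusted p of the other 8 was above 0.05 in edgeR's quasi-likelihood test. Across all genes tested, 17.3% passed this threshold (9.16% higher and 8.17% lower in NOD.B10), so the 2 of 10 called is close to the background. At an unadjusted p under 0.05, 4 of the 10 genes (Gzmk, Gzmm, Prf1 and Tbx21) passed, against 34.3% of all genes. The CPM of the strains did not overlap for 3 of the 10 genes (Gzmk, Gzmm and Tbx21), against 38.0% of all genes. Fold changes on the log2 scale had a median of 0.30 over the 10 genes and 0.00 over all genes tested. A positive sign was seen for 7 of the 10, against 7678 of 15330 genes tested. Among these 7, Gzma and Fasl turned in sign when a single library was left out. In whole spleen RNA, fewer cells of a type and less RNA per cell cannot be told apart.

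**Figure D1:**
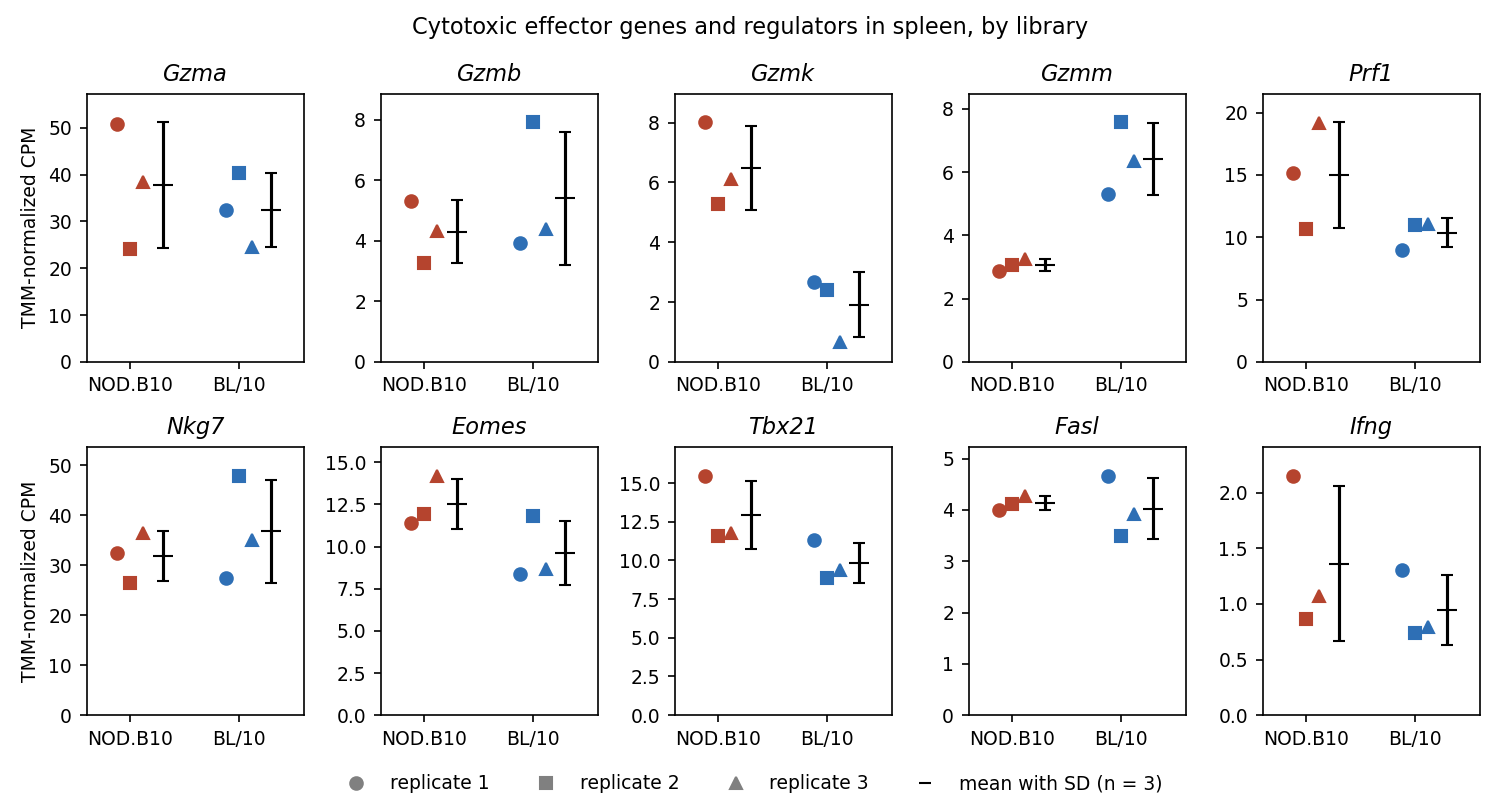
Normalized count in CPM (vertical axis, linear, from 0, scaled for each gene) of the 10 genes in each of the 6 spleen libraries, with points for libraries and bars for the mean ± SD of 3 libraries per strain. The strains separate for Gzmk (5.28 to 8.01 CPM in NOD.B10 against 0.682 to 2.66 CPM in BL/10), Gzmm and Tbx21, and overlap for the other 7 genes.

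Gzmk (ENSMUSG00000042385, chromosome 13 from 113171608 to 113225908, minus strand, GRCm38) encodes granzyme K, a tryptase-like granzyme of effector memory T cells. Replicates 1, 2 and 3 of NOD.B10 had 134, 86 and 109 counts, and those of BL/10 had 49, 36 and 12. On the CPM scale the NOD.B10 libraries were at 8.01, 5.28 and 6.12 and the BL/10 libraries at 2.66, 2.41 and 0.682. Every NOD.B10 library was above every BL/10 library, and BL/10 replicate 3 was far below the others of its strain. NOD.B10 spleens had a mean of 6.47 ± 1.40 CPM and BL/10 spleens one of 1.92 ± 1.08 CPM (SD, n = 3 each). The transcript was 3.38-fold higher in NOD.B10 (95% confidence interval 1.74 to 6.57, log2 fold change 1.76, standard error 0.41, adjusted p = 0.0264 in edgeR). The call depended on single libraries, since the adjusted p in edgeR was 0.0992 without NOD.B10 replicate 1, 0.0677 without NOD.B10 replicate 3 and 0.0633 without BL/10 replicate 2, with log2 fold changes of 1.57, 1.80 and 1.94. Among the 26-week libraries alone, with BL/10 replicate 1 as the only control, the log2 fold change of Gzmk was 1.28 and did not pass.

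Gzmm (ENSMUSG00000054206, chromosome 10 from 79689020 to 79695261, plus strand) encodes granzyme M, which cleaves after methionine or leucine and is abundant in NK cells. The NOD.B10 libraries held 48, 50 and 58 counts of it and the BL/10 libraries 98, 113 and 112. After normalization the NOD.B10 values were 2.87, 3.07 and 3.26 CPM, and the BL/10 values 5.32, 7.58 and 6.36 CPM. The NOD.B10 libraries were all below the BL/10 libraries, and the spread was narrow in NOD.B10. The mean was 3.07 ± 0.194 CPM (SD, n = 3) against 6.42 ± 1.13 CPM (SD, n = 3), which made Gzmm 2.08-fold higher in BL/10 (log2 fold change of NOD.B10 over BL/10 -1.06, standard error 0.18, 95% confidence interval -1.48 to -0.64, adjusted p = 0.00736 in edgeR). Gzmm stayed past the threshold in all 6 fits that each left out 1 library, with an adjusted p of at most 0.0408 in edgeR. Among the 26-week libraries alone, with BL/10 replicate 1 as the only control, the log2 fold change of Gzmm was -0.79 (adjusted p = 0.104 in edgeR).

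Gzma (ENSMUSG00000023132, chromosome 13 from 113093825 to 113100979, minus strand) encodes granzyme A, a tryptase that also processes cytokines. It was the most abundant granzyme on the CPM scale and per length, with 50.8, 24.1 and 38.4 CPM in NOD.B10 and 32.4, 40.2 and 24.5 CPM in BL/10. NOD.B10 replicates 1 and 2 were the highest and the lowest of the 6 libraries, so the strains overlapped over the whole range. Its log2 difference was 0.22 (standard error 0.28, 95% confidence interval -0.42 to 0.87, adjusted p = 0.606 in edgeR), and its sign turned without NOD.B10 replicate 1 (-0.05).

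Gzmb (ENSMUSG00000015437, chromosome 14 from 56258856 to 56262260, minus strand) encodes granzyme B, which cleaves after aspartate and activates caspases in the target cell. Its values were 5.32, 3.25 and 4.33 CPM in NOD.B10 and 3.91, 7.91 and 4.38 CPM in BL/10. BL/10 replicate 2 was the highest library, and the other 5 libraries lay between 3.25 and 5.32 CPM. The log2 difference of Gzmb was -0.32 (standard error 0.31, 95% confidence interval -1.02 to 0.39, adjusted p = 0.502 in edgeR), and 0.05 without BL/10 replicate 2. Of the other granzyme genes, Gzmd, Gzme, Gzmf, Gzmg and Gzmn had no count in any library, which allows up to 3 counts in each, and Gzmc had between 0 and 4 counts, so none of these 6 could be tested.

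Prf1 (ENSMUSG00000037202, chromosome 10 from 61297836 to 61304263, plus strand) encodes perforin. NOD.B10 libraries held 253, 174 and 341 counts of it (15.1, 10.7 and 19.2 CPM), and BL/10 libraries 166, 164 and 195 (9.02 to 11.1 CPM). NOD.B10 replicates 1 and 3 were above all BL/10 libraries, and replicate 2 lay among them. Perforin mRNA had a log2 difference of 0.54 (standard error 0.21, 95% confidence interval 0.05 to 1.02) with an adjusted p of 0.116 in edgeR. Without NOD.B10 replicate 2, Prf1 passed the threshold (log2 fold change 0.73, adjusted p = 0.0333 in edgeR).

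Nkg7 (ENSMUSG00000004612, chromosome 7 from 43437073 to 43438249, plus strand) encodes a membrane protein of cytotoxic granules needed for their release. Its values were 32.5, 26.5 and 36.4 CPM in NOD.B10 and 27.5, 47.9 and 34.9 CPM in BL/10. The highest value was again that of BL/10 replicate 2, and the strains overlapped. Nkg7 had a log2 difference of -0.21 (standard error 0.21, 95% confidence interval -0.69 to 0.27, adjusted p = 0.516 in edgeR), and 0.02 without BL/10 replicate 2.

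The T-box factor genes had similar differences. Eomes (ENSMUSG00000032446, chromosome 9 from 118478212 to 118486132, plus strand), which encodes a factor of NK cells and memory CD8+ T cells, had 11.4, 11.9 and 14.2 CPM in NOD.B10 and 8.36, 11.8 and 8.69 CPM in BL/10. BL/10 replicate 2 lay among the NOD.B10 libraries, and the other 2 BL/10 libraries were below them. For Eomes the log2 difference was 0.38 (standard error 0.17, adjusted p = 0.148 in edgeR). Tbx21 (ENSMUSG00000001444, chromosome 11 from 97098071 to 97115331, minus strand), which encodes T-bet, the factor of type 1 helper and effector lymphocytes, had 15.5, 11.6 and 11.7 CPM in NOD.B10 and 11.3, 8.85 and 9.38 CPM in BL/10. The libraries did not overlap, but the lowest of NOD.B10 and the highest of BL/10 were close. For Tbx21 the log2 difference was 0.39 (standard error 0.16, adjusted p = 0.128 in edgeR). Neither gene reached the threshold under any of the 15 alternative fits.

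Fasl (ENSMUSG00000000817, chromosome 1 from 161780689 to 161788495, minus strand), the ligand of the death receptor Fas, had 4.01, 4.11 and 4.27 CPM in NOD.B10 and 4.67, 3.49 and 3.92 CPM in BL/10. The NOD.B10 libraries lay within the range of BL/10. The log2 difference of Fasl was 0.03 (standard error 0.17, adjusted p = 0.910 in edgeR), and its 95% confidence interval ran from -0.36 to 0.43. Ifng (ENSMUSG00000055170, chromosome 10 from 118441047 to 118445892, plus strand) had the fewest counts of the 10 genes apart from Gzmk in BL/10 replicate 3. The NOD.B10 libraries held 36, 14 and 19 counts (2.15, 0.860 and 1.07 CPM), and the BL/10 libraries 24, 11 and 14 (1.30, 0.738 and 0.796 CPM). Replicate 1 was the highest of each strain, and the strains overlapped. The log2 fold change of Ifng was 0.51 (adjusted p = 0.422 in edgeR). Its 95% confidence interval ran from -0.45 to 1.46 and so held differences of either sign.

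**Figure D2:**
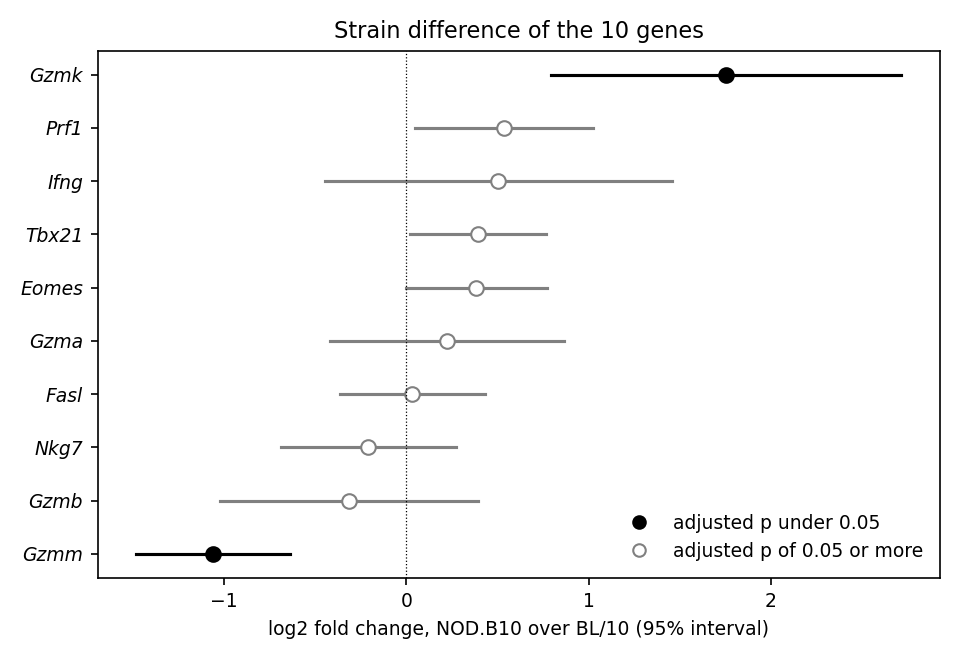
Log2 fold change of NOD.B10 over BL/10 for the 10 genes (horizontal axis) with 95% confidence intervals from edgeR's quasi-likelihood fit of 3 libraries per strain. Gzmk (1.76) and Gzmm (-1.06) passed an adjusted p of 0.05, and the other 8 genes lay between -0.32 and 0.54.

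Levels were compared between genes per length, as length-normalized levels (TPM) computed from the counts and the exon lengths of the table. In NOD.B10 the order of the mean TPM was Gzma (103), Nkg7 (83.1), Prf1 (17.5), Tbx21 (12.4), Gzmk (11.1), Gzmb (7.23), Eomes (7.18), Fasl (5.07), Gzmm (4.96) and Ifng (2.68). Neighbors in this order overlapped across the 3 libraries except between Nkg7 and Prf1, Eomes and Fasl, and Gzmm and Ifng. In BL/10 the order was Nkg7 (90.7), Gzma (83.3), Prf1 (11.4), Gzmm (9.84), Tbx21 (8.97), Gzmb (8.57), Eomes (5.22), Fasl (4.71), Gzmk (3.13) and Ifng (1.78), with gaps without overlap between Gzma and Prf1 and between Gzmb and Eomes. Gzmk was in place 5 in NOD.B10 and place 9 in BL/10, and Gzmm in place 9 and place 4.

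The makeup of the 4 granzymes was then compared as shares of their summed TPM. Gzma held 83.5%, 77.0% and 81.9% in NOD.B10 and 81.6%, 78.6% and 78.0% in BL/10, so the main granzyme was the same in each strain and its share overlapped. Gzmk held 8.32%, 10.7% and 8.26% in NOD.B10 and 4.24%, 2.98% and 1.37% in BL/10. For Gzmm the NOD.B10 shares were 2.81%, 5.86% and 4.15%, and the BL/10 shares 8.01%, 8.83% and 12.1%. The shares of Gzmk and of Gzmm did not overlap between strains (two-sided exact permutation p = 0.1 for each, the smallest that 3 against 3 allows, and 0.2 adjusted over the 4 shares), so no test of a single share could reach 0.05. Shares of Gzmb were 5.41% to 6.45% in NOD.B10 and 6.11% to 9.57% in BL/10, which overlapped. The ratio of Gzmk to Gzmm TPM was 2.96, 1.82 and 1.99 in NOD.B10 and 0.530, 0.338 and 0.114 in BL/10. It was above 1 in all NOD.B10 libraries and below 1 in all BL/10 libraries. Both genes had already differed in opposite directions without overlap. The separation of their shares and ratio restates the same counts and is no further result. Ratios of Gzma to Gzmk and of Gzmb to Prf1 TPM were higher in BL/10 without overlap. The same share over all gene pairs was not computed. The ratio of Eomes to Tbx21 TPM had a mean of 0.594 in NOD.B10 and 0.599 in BL/10.

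**Figure D3:**
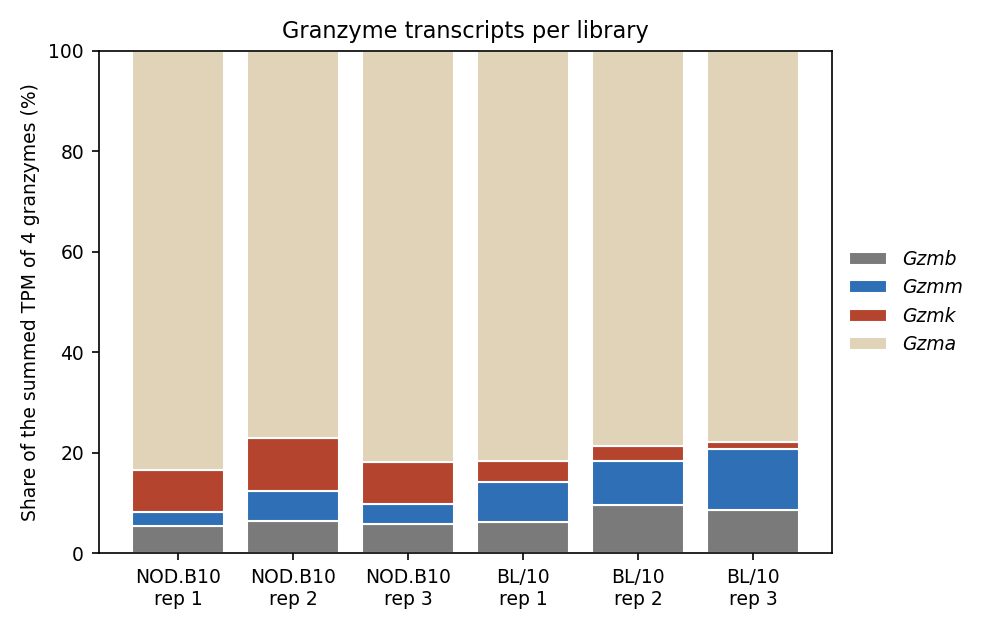
Share of the summed TPM of Gzma, Gzmb, Gzmk and Gzmm (vertical axis, percent) held by each granzyme in each of the 6 libraries. Gzma holds 77.0% to 83.5% everywhere, Gzmk is larger in NOD.B10 (8.26% to 10.7%) than in BL/10 (1.37% to 4.24%), and Gzmm is smaller.

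Genes that work with these effectors were read from lists. The background for every list is the 17.3% of all genes tested that passed (9.16% higher and 8.17% lower in NOD.B10). Of 14 genes of granule content and exocytosis, 1 rose and 2 fell. Serpinb9, the granzyme B inhibitor that protects the killer cell, rose (log2 fold change 0.43). Stx11, a syntaxin of granule fusion, fell (-0.74, adjusted p = 0.00246 in edgeR). Ctsc, the protease that activates granzymes, fell and was barely under the threshold (-0.37, adjusted p = 0.04997 in edgeR). The median of the 14 genes was 0.01. Unc13d, Rab27a, Stxbp2 and Lyst, genes of granule docking and release, had log2 fold changes between -0.27 and 0.06 and did not pass. Stx11 had 36.8, 37.0 and 30.8 CPM in NOD.B10 and 61.5, 55.9 and 57.4 CPM in BL/10, without overlap. The count of 3 was 1 without NOD.B10 replicate 1, NOD.B10 replicate 3 or BL/10 replicate 3.

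Of 11 genes of death ligands, receptors and their downstream proteins, 1 fell past the threshold, a gene not reported here, and 0 rose past it. The median log2 fold change was 0.12. Fas, the receptor of Fasl, had 22.1, 20.7 and 22.3 CPM in the NOD.B10 libraries and 17.4, 15.2 and 9.83 CPM in those of BL/10. The libraries did not overlap, and the log2 fold change of 0.62 did not pass (adjusted p = 0.0644 in edgeR).

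Of 19 tested genes around interferon gamma, 4 rose and 1 fell, with a median of 0.23. Those that rose were Il27ra (0.91), a receptor chain for interleukin 27, Il12rb2 (0.81), the signaling chain of the interleukin 12 receptor, Stat4 (0.74), the factor downstream of it, and Irf1 (0.42), an early target of interferon gamma. All 4 share exon sequence with a neighboring gene in the annotation, and counting did not use strand, so their counts are uncertain. Il12b, the interleukin 12 subunit made by myeloid cells, fell, with 1.20, 0.860 and 0.618 CPM in NOD.B10 and 6.52, 6.17 and 4.49 CPM in BL/10. Its libraries did not overlap and the log2 fold change was -2.68 (adjusted p = 0.000751 in edgeR). The receptor genes Ifngr1 and Ifngr2 had log2 fold changes of 0.27 and -0.03 and did not pass. The count of 5 was 3 without NOD.B10 replicate 1, NOD.B10 replicate 3, BL/10 replicate 2 or BL/10 replicate 3, and 8 with DESeq2.

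Of 21 tested regulators of cytotoxic lymphocytes, 9 rose and 2 fell, with a median of 0.48. Those that rose were Lef1 (1.82) and Tcf7 (1.66), factors of naive and memory T cells, Runx3 (0.65), Prdm1 (0.64), which encodes Blimp-1, and Tox, Ikzf2, Batf, Foxo1 and Irf4 (0.53 to 0.79). Several of these are general T cell or B cell genes. Lef1, Tox, Ikzf2 and Foxo1 share exon sequence with another gene in the annotation, so their counts are uncertain. Hopx, a regulator of effector T cell survival, fell (-1.64, adjusted p = 0.000344 in edgeR) from 10.5 to 12.3 CPM in BL/10 to between 3.38 and 4.10 CPM in NOD.B10, and its exons overlap those of Hopxos. Il15, the cytokine that maintains NK cells and memory CD8+ T cells, fell as well, with 6.04, 5.47 and 5.62 CPM in NOD.B10 and 11.2, 11.2 and 10.4 CPM in BL/10 (-0.94, adjusted p = 0.00209 in edgeR). Its libraries did not overlap. The receptor genes Il2rb and Il15ra had log2 fold changes of 0.02 and 0.17 and did not pass. The count of 11 was 6 or 7 when any library other than BL/10 replicate 1 was left out.

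Markers of the cells that carry these genes moved apart. Of 12 T cell markers, 11 rose, with a median log2 fold change of 1.29, and their summed CPM was 834 to 1078 in NOD.B10 and 359 to 522 in BL/10. Of the coreceptor genes, Cd4 rose (0.96), and Cd8a and Cd8b1 had log2 fold changes of 0.16 and -0.40 (adjusted p = 0.527 and 0.190 in edgeR). Of 15 NK cell markers, 3 rose (Ncr1, Txk and Cd244, 0.53 to 0.93) and 3 fell (Klrb1c, Cd160 and Ccl5, -0.81 to -0.55), with a median of -0.40. Their summed CPM was 283 to 355 in NOD.B10 and 321 to 379 in BL/10, which overlapped. The count of 6 NK cell markers was 3 without NOD.B10 replicate 3 or BL/10 replicate 2, 2 without BL/10 replicates 1 and 2 together, and 0 among the 26-week libraries. None of the T cell and NK cell markers was at 0. Klrb1c and Cd160 share exon sequence with another gene in the annotation, so their counts are uncertain. Of 11 neutrophil and mast cell markers, 9 fell, with a median of -2.15 and summed CPM of 2126 to 2424 against 6048 to 12646. The part of these cell types in the differences of Gzmk and Gzmm was not tested.

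**Figure D4:**
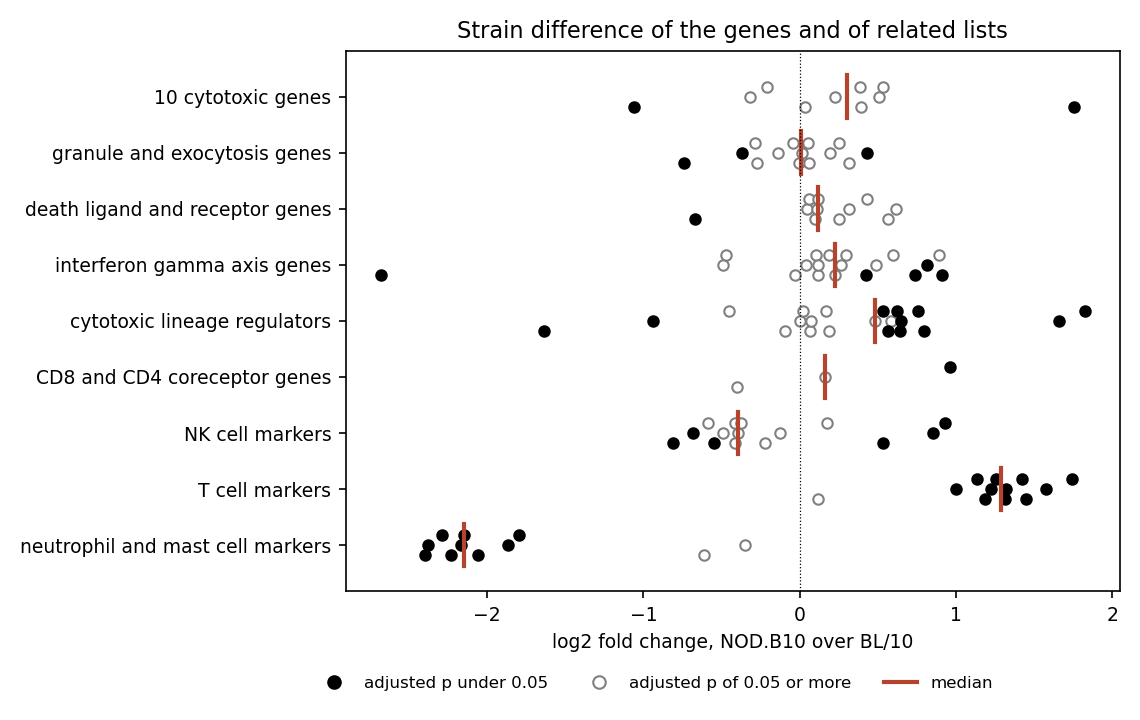
Log2 fold change of NOD.B10 over BL/10 (horizontal axis) for the tested genes of each list, with a point per gene (filled where its adjusted p was under 0.05) and a line at the median. T cell markers lie to the right (median 1.29), neutrophil and mast cell markers to the left (median -2.15), and the 10 cytotoxic genes around 0.30.

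The 10 genes were also expressed per count of the CD3 genes (Cd3d, Cd3e and Cd3g), which are part of the T cell receptor complex. On this scale 8 of the 10 genes were lower in NOD.B10 without overlap between strains, and Gzmk and Ifng overlapped. The same ratio was without overlap for 92.2% of all genes tested, and lower in NOD.B10 for 90.5%, and the CD3 counts themselves were higher in NOD.B10 (3526 to 5015 against 1488 to 2160). A share of 8 in 10 near this background is no result about the 10 genes. Their median on the log2 scale was -0.99, against -1.27 for all genes. Per count of the NK cell markers, 5 of the 10 genes did not overlap, against 34.0% of all genes. Of these, 4 were higher in NOD.B10 (Gzmk, Prf1, Eomes and Tbx21, against 27.6% of all genes) and 1 was lower (Gzmm, against 6.43%), and the median was 0.47, against 0.19 for all genes. Prf1, Eomes and Tbx21 were lower on the CD3 scale and higher on the NK cell scale. Since 90.5% of all genes were also lower on the CD3 scale, this contrast is no result about these genes.

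Within a strain, only some of the 10 genes varied together. Correlations of a gene's deviations from the strain means with the mean of the other genes differed widely. They ran from -0.46 for Fasl and 0.07 for Tbx21 to 0.76 for Gzmb and 0.95 for Gzma (n = 6 libraries). NOD.B10 replicate 2 was the lowest of its strain for 7 of the 10 genes and the highest for none. BL/10 replicate 1 was the lowest of its strain for 5 and the highest for 4. The same shares over all genes were not computed. The genes with the profile most like the mean of the 10 across the 6 libraries were Tmem221, Tor1aip1, 1700025G04Rik, C130013H08Rik and Setmar, with Pearson correlations of 0.964 to 0.979 among 14208 genes compared. With 6 libraries and so many genes, high values arise in number, and the points share library and strain.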

How the data were processed

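The authors sequenced spleen RNA from 3 females of each strain as single-end TruSeq libraries. The authors deposited raw read counts per gene, with exon lengths and without normalization. Per the file headers, reads were counted on exons with featureCounts 1.5.1 and Ensembl 84 (GRCm38), without strand and without multi-mapping reads or those on more than 1 gene, so genes with overlapping exons or close paralogs are uncertain. The methods name Tophat2 as the aligner and the submitters' processing notes HISAT2 2.0.5. Reads of NOD alleles were placed on the C57BL/6J reference, which can lower their counts. Libraries other than these 6 were not analysed here, and a few genes of the lists are not reported here.

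Symbols came from GENCODE M21 (47224 of 47729 identifiers matched). Strains were taken from the descriptions, which name the columns. The match of BL/10 replicate 3 rests on library number and strain alone. Counts were analysed in R 4.3.3 with edgeR 4.0.16 (filterByExpr, TMM, robust quasi-likelihood test, BL/10 as reference) and Benjamini-Hochberg adjustment over 15330 genes at 0.05. Standard errors came from the fold change and F statistic. CPM are TMM-normalized. The procedure was tested on simulated counts. Alternatives were DESeq2 1.42.0, RLE size factors, other filters on low counts, a replicate block, leaving out hemoglobin and immunoglobulin genes, the 26-week libraries alone and leaving out each library. Leaving out pancreas markers, or BL/10 replicates 1 and 2, was added after seeing the data.

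The 10 genes and all lists were chosen with earlier results of these data known. The genes named are all 10 genes, from each list those past the threshold, at most the 6 with the smallest p each way, and the 5 genes with the profile most like the mean (mean of at least 1 CPM, Pearson correlation). Tox, Foxo1, Irf4 and the list genes given as not passing were named outside this rule, after their values were seen.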

Additional observations from a re-analysis of the deposited data

How the results depend on the processing

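Gzmm kept its direction in all 15 alternative fits and was past the threshold in 14, and Gzmk kept its direction in all 15 and was past it in 11, with log2 fold changes from 1.28 to 3.22. Among the 26-week libraries alone, where the lone BL/10 library is assumed to vary like the others, 1067 genes passed in all and 0 of the 10 cytotoxic genes, 1 granule gene, 1 interferon gamma axis gene, 4 regulators and 0 NK cell markers. Gzmb (0.14), Nkg7 (0.21) and Fasl (-0.18) turned in sign there. DESeq2 called 3254 of 18498 genes, with 2 death ligand and receptor genes and 8 of the interferon gamma axis among them. With no filter on low counts, 3061 of 27067 genes passed, 2 death genes among them. Without BL/10 replicates 1 and 2, 3 interferon gamma axis genes and 2 NK cell markers passed. Per count of NK cell markers in place of CD3, 5 of the 10 cytotoxic genes did not overlap (4 higher and 1 lower in NOD.B10), against 34.0% of all genes.

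With 1 library left out, the count over all genes was between 1305 of 15629 (without NOD.B10 replicate 1) and 4099 of 15590 (without BL/10 replicate 1). It was between 1 and 3 for the 10 cytotoxic genes (3 without NOD.B10 replicate 2, 1 without NOD.B10 replicate 1, NOD.B10 replicate 3 or BL/10 replicate 2), 1 and 3 for granule genes, 0 and 3 for death genes, 3 and 6 for the interferon gamma axis, 6 and 13 for regulators, 1 and 2 for coreceptors (2 without NOD.B10 replicate 3), and 3 and 7 for NK cell markers (3 without NOD.B10 replicate 3 or BL/10 replicate 2). The log2 fold change was between -0.0493 and 0.464 for Gzma, turning without NOD.B10 replicate 1. It turned without BL/10 replicate 2 for Gzmb (-0.514 to 0.0511), Nkg7 (-0.390 to 0.0218) and Fasl (-0.0589 to 0.146). The cause was not tested.

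With a replicate block, 2978 of 15330 genes passed, 2 of the 10 cytotoxic genes among them. The numbers do not pair the libraries, since deviations from the strain means correlated at 0.0168, 0.119 and -0.0937 for numbers 1, 2 and 3. The block changed the call of no cytotoxic gene.

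Ifng had 11 to 36 counts in 3 libraries a strain, and the standard error of its log2 fold change was 0.41. How much of it came from depth and how much from variation between mice was not tested.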
